A study of Mus musculus with 4 samples.

Results

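The BCL2 family and the PIM kinases were examined as 10 survival and cell death genes, chosen by exact gene symbol in the platform's probe annotation. They are the pro-survival genes Bcl2, Bcl2l1 and Mcl1, the effectors Bax and Bak1, the BH3-only genes Bcl2l11, Bmf and Bbc3, and the kinases Pim1 and Pim2. Of the 10 genes, 9 were matched to probe sets, out of 18193 genes with a symbol of their own on the array. They held 29 probe sets, each a group of short probes that together give 1 signal. Bax had no probe set under its symbol and was not analysed here.

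BCL2 family proteins decide whether the outer mitochondrial membrane is breached during apoptosis. BCL2, BCL-XL (from Bcl2l1) and MCL1 hold back BAX and BAK, which form the pores, and BH3-only proteins such as BIM (from Bcl2l11), BMF and PUMA (from Bbc3) relieve that restraint. PIM kinases are constitutively active serine/threonine kinases whose genes respond to JAK-STAT signalling and which promote survival in part by phosphorylating the BH3-only protein BAD. In the mammary gland the family is best known for the loss of milk-producing epithelium after weaning.

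Mammary tissue of mice labelled STAT5 KO was compared with that of mice labelled STAT5 WT on 2 Affymetrix arrays per genotype, 4 in all. The design text gives 2 mice per genotype, so each array was taken as a mouse of its own. STAT5 is a DNA-binding protein switched on by prolactin, growth hormone and many cytokines through JAK2. The series' title places the work in the development of luminal progenitors and names STAT5A. The design text gives a time of 6 days without its starting event, and the labels give no strain, age, deleted exon or Cre driver. Both genotypes were otherwise described alike, with no treatment.

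Signals are MAS5 intensities on a linear scale, and differences are KO minus WT on the log2(signal + 16) scale, tested by limma with p-values adjusted over the whole tested table (threshold 0.05). Stat5a stood at 1836 and 861 on the KO arrays, against 2307 and 2061 on the WT arrays, and Stat5b at 1069 and 712, against 1522 and 1506. Neither passed (limma adjusted p = 0.246 for Stat5a and 0.102 for Stat5b). A second, dimmer probe set of each gene was also lower on both KO arrays and did not pass. Its difference was -1.22 for Stat5a (limma adjusted p = 0.106) and -0.97 for Stat5b (0.121). Whether the probes lie in the deleted part is not stated. Of 11360 tested genes, 292 passed, 138 higher and 154 lower in KO. This count went down to 68 without WT replicate 1 and to 43 without WT replicate 2, and up to 563 without KO replicate 2.

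The RNA came from whole tissue, so fewer cells of a type and less RNA per cell cannot be told apart. Summed signals of 20 epithelial markers were 38038 and 59760 on the KO arrays, against 54263 and 56966 on the WT arrays, so the sum of KO replicate 1 lay below those of the other 3 arrays. Gene by gene, 10 of the 20 were entirely lower and 3 entirely higher on the KO arrays, against 27.5% and 26.2% of all tested genes. The median difference of the 20 was -0.40. The ETS factor gene Ehf fell, with 534 and 1054 in KO, against 2378 and 2861 in WT, the keratin gene Krt7 rose and 18 did not pass. The 9 basal and myoepithelial markers summed to 17733 and 26339 in KO, against 25588 and 29803 in WT, and 1 of them, Oxtr, fell. Skeletal muscle markers summed to 10549 and 6263 in KO, against 1592 and 506 in WT, and 8 macrophage markers to 33833 and 35041, against 28085 and 22366. Of 10 tested muscle markers 5 rose. All 5 read below 126, the signal of the filter, on both WT arrays and were tested through their KO signals. None of the macrophage markers passed. Those of B cells, which express Bcl2 and Pim2, summed to 374 and 302 in KO, against 483 and 989 in WT, and none of the 6 measured reached the tested range. T cell markers summed to 312 and 577 in KO, against 621 and 808 in WT. Only 1 of the 6 measured, Cd3e, was tested, and it overlapped, at 28.1 and 353 in KO, against 192 and 404 in WT. Signals of 6 adipocyte markers summed to 72144 and 72762 in KO, against 71909 and 65294 in WT. The part of cell composition in the results below was not tested.

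None of the 9 matched genes passed the limma test through its brightest probe set, the one used to stand for the gene. Of all tested genes 2.57% did, too small a share for 0 of 9 genes to differ from it. All 9 passed the filter on dim signals. An unadjusted p below 0.05 was seen for 1 of the 9, Bcl2l11, against 21.3% of all tested genes. The median difference was -0.12 over the 9 genes and -0.01 over all tested genes, and the median absolute difference was 0.23 and 0.20. None of the 9 differed by 2-fold or more. Of 11360 tested genes 497 did, again too small a share for 0 of 9 genes to differ from it. The genotypes were separated without overlap for 4 of the 9, as for 53.7% of all tested genes. KO was above WT for 1 of them and below for 3, against 26.2% and 27.5% of all tested genes.

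**Figure D1:**
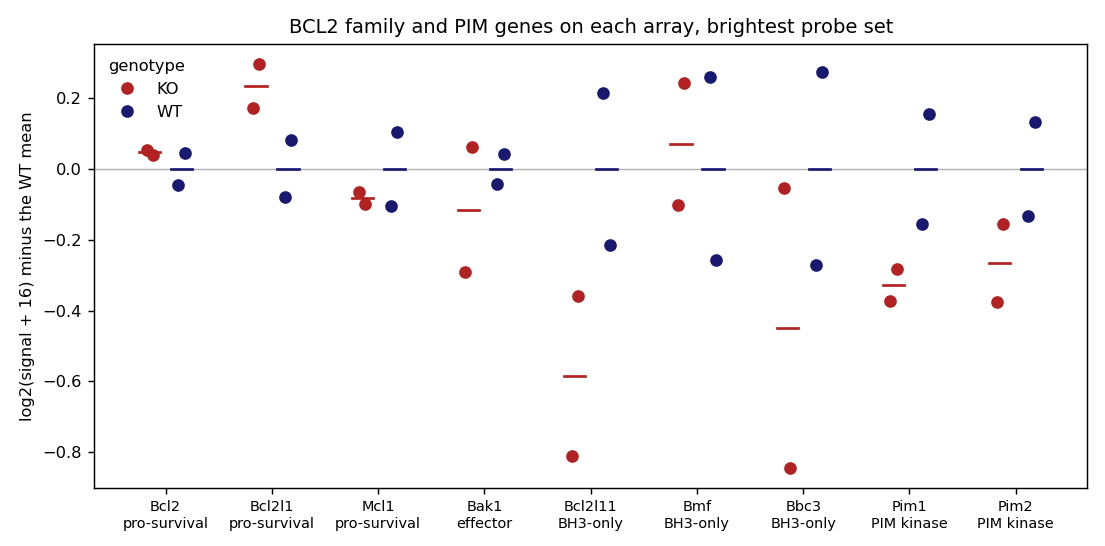
Signals of the 9 matched genes on each array, as log2(signal + 16) of the brightest probe set minus the WT mean, with KO left of WT for each gene. Each dot is 1 array and each short line a genotype mean of 2 arrays. KO arrays lie apart from WT arrays for Bcl2l1, Bcl2l11, Pim1 and Pim2 and overlap with them for the other 5 genes.

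Taken probe set by probe set, 24 of the 29 were bright enough to be tested and 1 of them passed, a Bcl2 probe set that was higher in KO. Of all tested probe sets 0.955% passed with a higher signal in KO. Differences lay above 0 for 11 and below 0 for 13 of the 24, with 9 probe sets entirely higher and 7 entirely lower on the KO arrays. The background shares were 23.9% and 28.0% of all tested probe sets.

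**Figure D2:**
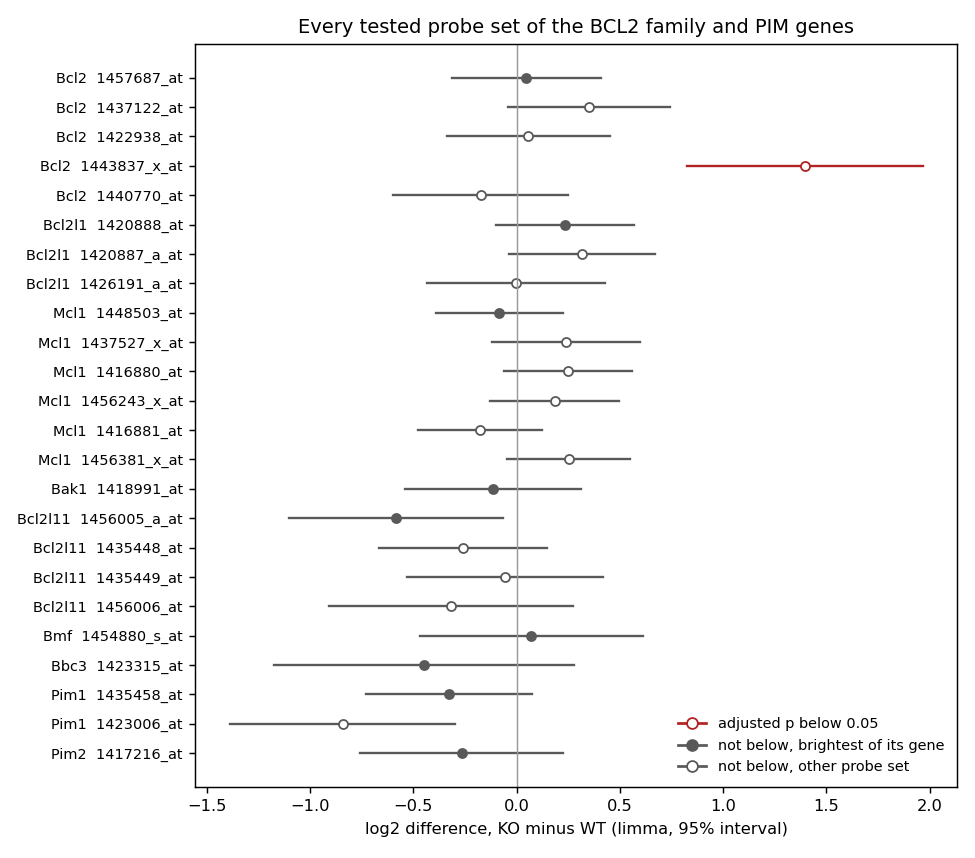
Log2 difference, KO minus WT, of each of the 24 tested probe sets with its 95% interval from limma, 2 arrays per genotype. Filled dots mark the brightest probe set of a gene, open dots the others and red the only one past the threshold, a Bcl2 probe set at 1.40, while the other 4 of Bcl2 lie between -0.17 and 0.35.

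Bcl2 encodes the founding member of the family, a survival protein of the outer mitochondrial membrane. Its 5 probe sets did not give 1 answer. The brightest, 1457687_at, read 517 and 512 on the KO arrays, against 482 and 513 on the WT arrays. Those groups overlapped, and the difference was 0.05 with an interval of -0.32 to 0.41 (limma adjusted p = 0.897).

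In contrast, the Bcl2 probe set 1443837_x_at read 330 and 509 on the KO arrays, against 146 and 146 on the WT arrays. Both KO arrays lay above both WT arrays, and KO replicate 2 was the higher of the pair. The signal rose to 420 ± 126 in KO, against 146 ± 0.447 in WT (SD, n = 2), a difference of 1.40 with an SE of 0.24 and an interval of 0.83 to 1.97 (limma adjusted p = 0.0447). The suffix x marks probe sets in which some probes can also match other transcripts, so this signal may not come from Bcl2 alone. The call was lost without KO replicate 2 (difference 1.10, adjusted p = 0.0554), without WT replicate 1 (1.40, 0.118) and without WT replicate 2 (1.39, 0.189), with no filter (adjusted p = 0.125) and with no trend in the variance (0.0546). Macrophage and skeletal muscle markers were higher in KO alongside it, and whether they bear on it was not tested.

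The 3 remaining Bcl2 probe sets gave no call. At 1437122_at the signals were 425 and 438 in KO, against 317 and 354 in WT, with no overlap (difference 0.35, limma adjusted p = 0.301). The probe set 1422938_at read 317 and 322 in KO, against 310 and 303 in WT, a gap of a few units. By contrast 1440770_at read 222 and 240 in KO, against 263 and 261 in WT, so it lay lower on both KO arrays (difference -0.17, adjusted p = 0.647). When all 5 were averaged the difference was 0.34 (limma adjusted p = 0.259).

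**Figure D3:**
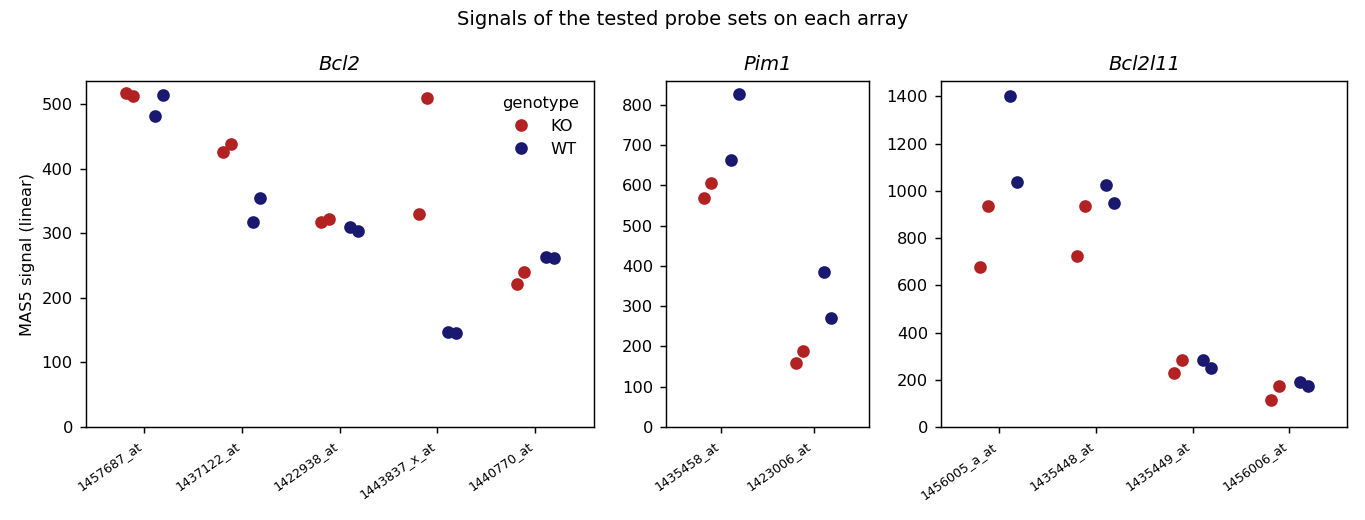
MAS5 signals on a linear scale starting at 0 for the tested probe sets of Bcl2, Pim1 and Bcl2l11, with KO dots left of WT dots and 1 dot per array. Only Bcl2 probe set 1443837_x_at shows a KO signal more than 2-fold above WT on both arrays, with 330 and 509 against 146 and 146, while both Pim1 probe sets lie lower in KO. Heights of different probe sets cannot be compared, because probes differ in affinity.

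Since STAT5 binds DNA at the palindrome TTCNNNGAA, the 250 bases upstream of each listed start of the 10 genes were searched for it in the RefSeq promoter table (GRCm38.p6). None of 18 windows held it, against 7.02% of 32851 windows of all genes, which says only that these letters are absent from these windows. GC boxes, GGGCGG or CCGCCC on either strand, occurred in 10 of the 18 and in 32.7% of all windows. The Bcl2 and Pim1 windows are shown because those genes gave the largest differences among the probe sets, and capitals mark GC boxes. The Bcl2 window lies at chr1:106714291-106714540 on the minus strand and the Pim1 window, upstream of the first of 2 listed starts, at chr17:29490535-29490784 on the plus strand. Each held 7 GC boxes, and the GC content was 74.8% for Bcl2 and 82.4% for Pim1.
Bcl2: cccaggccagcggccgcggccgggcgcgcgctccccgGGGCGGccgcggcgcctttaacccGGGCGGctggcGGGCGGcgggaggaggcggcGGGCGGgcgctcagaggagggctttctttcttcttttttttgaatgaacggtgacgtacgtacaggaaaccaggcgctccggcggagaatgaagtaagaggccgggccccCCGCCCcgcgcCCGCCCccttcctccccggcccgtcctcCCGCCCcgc
Pim1: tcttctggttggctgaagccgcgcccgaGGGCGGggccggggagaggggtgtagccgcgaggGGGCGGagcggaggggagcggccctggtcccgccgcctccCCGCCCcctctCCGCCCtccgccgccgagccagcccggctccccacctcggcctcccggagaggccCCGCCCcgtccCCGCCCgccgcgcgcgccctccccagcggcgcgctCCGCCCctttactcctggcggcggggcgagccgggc

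Bcl2l1 encodes BCL-XL, a survival protein that is a described target of STAT5 in blood cells. Its brightest probe set, 1420888_at, read 1506 and 1640 on the KO arrays, against 1261 and 1411 on the WT arrays. Both KO arrays lay above both WT arrays, by a small margin, with a mean of 1573 ± 95.4 in KO and 1336 ± 106 in WT (SD, n = 2). The difference was 0.23 with an interval of -0.10 to 0.57 (limma adjusted p = 0.410), and 0.15 without WT replicate 1. The second probe set, 1420887_a_at, also lay higher in KO, at 702 and 747, against 557 and 599 (difference 0.32, adjusted p = 0.301). A further one, 1426191_a_at, read 313 and 348 in KO, against 303 and 361 in WT, and overlapped fully. The last was too dim to be tested, at 18.1 and 29.0 in KO, against 43.2 and 6.78 in WT.

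Mcl1 encodes a short-lived survival protein that luminal mammary cells need. Its brightest probe set, 1448503_at, read 3727 and 3640 on the KO arrays, against 3629 and 4200 on the WT arrays, and overlapped. The difference was -0.08 with an interval of -0.39 to 0.23 (limma adjusted p = 0.776), and its sign turned when all probe sets were averaged (0.11). Among all 6 probe sets of Mcl1 the differences ran between -0.18 and 0.25, 4 above 0 and 2 below. The 2 extremes had tight replicates. The probe set 1456381_x_at read 2086 and 2072 in KO, against 1739 and 1748 in WT (difference 0.25, adjusted p = 0.326), while 1416881_at read 2133 and 2233 in KO, against 2545 and 2392 in WT (difference -0.18, adjusted p = 0.497). These separations point opposite ways on the same arrays.

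Bak1, the gene of the pore-forming effector BAK, read 440 and 567 on the KO arrays, against 527 and 559 on the WT arrays. KO replicate 1 was the lowest array and KO replicate 2 the highest, so WT lay inside the KO range. The difference was -0.12 with an interval of -0.54 to 0.31 (limma adjusted p = 0.776). After centring on epithelial markers it was 0.17, against a median of 0.28 over all genes, and without KO replicate 1 it was 0.06. Its second probe set was not tested, at 80.5 and 125 in KO, against 110 and 112 in WT.

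Bcl2l11, which encodes BIM, an activator of BAX and BAK, had the largest difference of the 9 genes. Its brightest probe set, 1456005_a_at, read 679 and 936 on the KO arrays, against 1400 and 1036 on the WT arrays. Both KO arrays lay below both WT arrays, but the replicates of each genotype were spread widely, at 807 ± 181 in KO and 1218 ± 258 in WT (SD, n = 2). The difference was -0.59 with an SE of 0.22 and an interval of -1.10 to -0.07, and it did not pass (limma adjusted p = 0.207). It was -0.36 without KO replicate 1, -0.37 without WT replicate 1 and -0.81 without KO replicate 2.

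The other tested Bcl2l11 probe sets gave smaller differences of the same sign. At 1435448_at the signals were 724 and 935 in KO, against 1025 and 950 in WT (difference -0.26, limma adjusted p = 0.460). The probe sets 1456006_at and 1435449_at overlapped between genotypes, with differences of -0.32 (adjusted p = 0.540) and -0.06 (adjusted p = 0.907). KO replicate 1 gave the lowest signal at every one of the 4 tested Bcl2l11 probe sets, and KO replicate 2 lay near or within the WT range. KO replicate 1 was also the array with the lowest epithelial and basal marker sums, and the part of that in the Bcl2l11 signal was not tested. After centring on epithelial markers the difference of the brightest probe set was -0.30 (limma adjusted p = 0.917), against a median of 0.28 over all genes.

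Among 11359 other tested genes, those nearest to Bcl2l11 in their pattern over the 4 arrays were Nfkbie, Gprin3 and Ntng1, with Euclidean distances of 0.0893, 0.104 and 0.105 between mean-centred log2 values. Nfkbie, for an inhibitor of NF-kappa-B, read 337 and 482 in KO, against 663 and 511 in WT. Its lowest array, KO replicate 1, and its highest, WT replicate 1, were those of Bcl2l11, which follows from how Nfkbie was chosen.

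Bmf encodes a BH3-only protein tied to loss of cell attachment and to lumen formation in mammary acini. Its brightest probe set, 1454880_s_at, read 439 and 562 on the KO arrays, against 568 and 392 on the WT arrays, so both genotypes spanned nearly the same range. The difference was 0.07 with an interval of -0.47 to 0.61 (limma adjusted p = 0.897). It changed sign without KO replicate 2 (-0.10) and without WT replicate 2 (-0.19). Its 2 other probe sets were below the tested range, and 1 of them, 1422995_at, read 84.2 and 79.6 in KO, against 115 and 92.9 in WT.

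Bbc3, the gene of PUMA, a BH3-only protein induced by p53, had 1 probe set. It read 430 and 242 on the KO arrays, against 367 and 543 on the WT arrays. The lowest array was KO replicate 2 and KO replicate 1 lay inside the WT range. The difference of -0.45 therefore came with a wide interval of -1.18 to 0.28 (limma adjusted p = 0.475), and it was -0.84 without KO replicate 1 and -0.05 without KO replicate 2. Bcl2l11 was lowest on KO replicate 1 and Bbc3 on KO replicate 2, so these genes did not share a pattern over the KO mice.

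Pim1, a survival kinase gene and a described transcriptional target of STAT5 in blood cells, was lower on both KO arrays at both of its probe sets. At the brighter one, 1435458_at, the signals were 568 and 606 in KO, against 663 and 825 in WT. The difference was -0.33 with an interval of -0.73 to 0.07 (limma adjusted p = 0.342). It was -0.17 without WT replicate 2. After centring on epithelial markers it was -0.04, against a median of 0.28 over all genes. The dimmer probe set, 1423006_at, read 159 and 190 in KO, against 385 and 272 in WT, which left 53% of the WT mean. Its difference of -0.84 had an SE of 0.23 and an interval of -1.39 to -0.30, and it did not pass either (limma adjusted p = 0.110). With both averaged the difference was -0.58 (limma adjusted p = 0.0948). It was the lowest adjusted p that any of the alternatives gave for a gene-level Pim1 difference.

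Pim2, a related kinase gene prominent in lymphoid cells, had 1 probe set. It read 172 and 202 on the KO arrays, against 206 and 251 on the WT arrays, so the KO signals were lower by a narrow margin. The difference was -0.27 with an interval of -0.76 to 0.23 (limma adjusted p = 0.537). It was -0.13 without WT replicate 2 and -0.16 without KO replicate 1. After centring on epithelial markers it was 0.02, against a median of 0.28 over all genes. B cell and T cell marker sums were lowest on the KO arrays as well. Plasma cell marker sums overlapped, at 1192 and 565 in KO, against 1287 and 619 in WT. The part of these cells in the Pim2 signal was not tested.

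Genes around the family in the same pathway were taken from 7 lists covering 63 genes, of which 54 were matched and 49 were bright enough to be tested. Of these 1 rose, 0 fell and 48 did not pass the limma test, or 2.04% against 2.57% of all tested genes. The median difference was 0.09 over the 49 genes. An unadjusted p below 0.05 was seen for 10 of the 49, a share near the 21.3% of all tested genes.

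**Figure D4:**
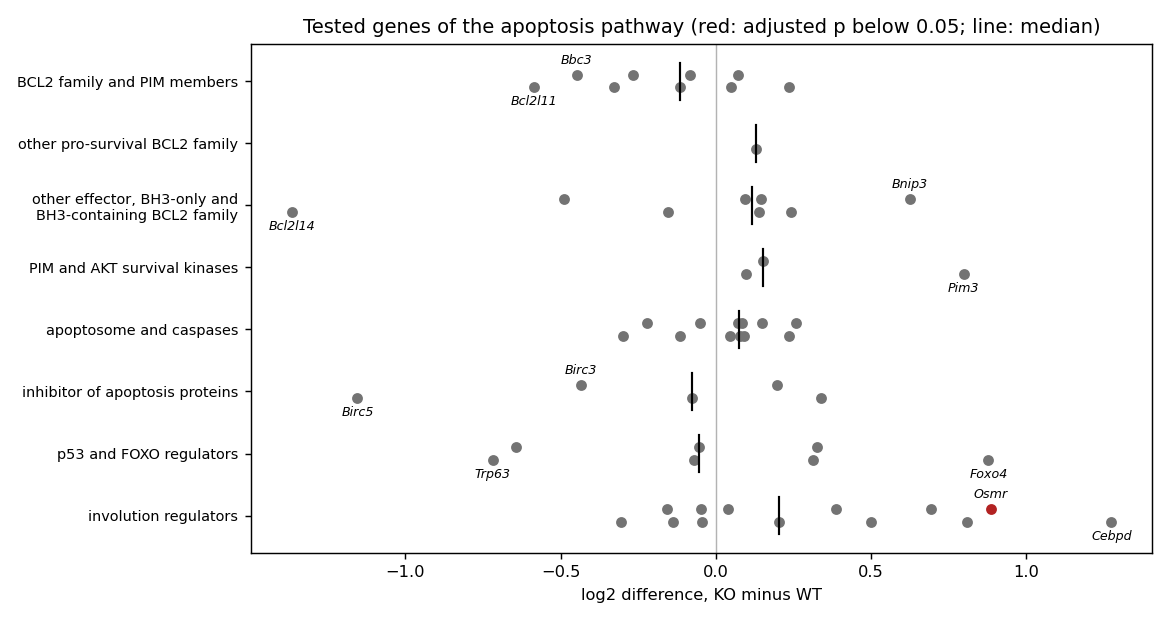
Log2 difference, KO minus WT, of the 9 matched members and of the 49 other tested pathway genes, by list. Each dot is 1 gene, each vertical line a list's median, and red marks an adjusted p below 0.05, which only Osmr reached.

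Among the other tested BCL2 relatives 0 of 9 passed. The mean level of Bcl2l15 was too low for testing, with signals of 47.5 and 62.0 in KO, against 203 and 241 in WT. Bcl2l10, Hrk and Pmaip1 were not tested either, and their genotypes overlapped. Bcl2l2, the pro-survival gene of BCL-W, read 1666 and 1763 in KO, against 1654 and 1483 in WT (difference 0.13, limma adjusted p = 0.656). Bnip3, a hypoxia-responsive gene with a BH3-like region that acts in mitophagy, read 11473 and 12578 in KO, against 7506 and 8065 in WT. Its groups were well separated, yet the difference of 0.63 missed the threshold (limma adjusted p = 0.0517). Bcl2l14, which encodes the family member BCL-G, read 75.9 and 114 in KO, against 235 and 299 in WT (difference -1.36, adjusted p = 0.0517). Its KO signals lay below 126, the signal of the filter, so it was tested through its WT signals. Bnip3 and Bcl2l14 lay just outside the threshold and on opposite sides of 0, and both passed with a pseudocount of 64.

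Of 3 tested PIM and AKT kinase genes none passed. Pim3, the remaining PIM gene, read 3606 and 5556 in KO, against 2260 and 2916 in WT (difference 0.80, limma adjusted p = 0.123), and its other tested probe set gave 0.91. Its KO arrays were the higher ones, whereas those of Pim1 and Pim2 were the lower ones. Without KO replicate 1, Pim3 passed. Akt1, a survival kinase gene, read 2667 and 3145 in KO, against 2676 and 2539 in WT, and overlapped (difference 0.15, adjusted p = 0.603).

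The apoptosome and caspase genes had the smallest median absolute difference of the 7 lists (0.10). None of 12 passed, with or without adjustment, and the differences lay between -0.30 and 0.26. Casp2, an initiator caspase gene, read 1285 and 1594 in KO, against 1678 and 1854 in WT (difference -0.30, limma adjusted p = 0.353). Endog, a mitochondrial nuclease gene, read 731 and 788 in KO, against 742 and 539 in WT (difference 0.26, adjusted p = 0.514).

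Of 5 inhibitor of apoptosis genes none passed. Birc5, which encodes survivin, a protein of the mitotic machinery as well as an apoptosis inhibitor, read 233 and 340 in KO, against 560 and 748 in WT (difference -1.15, limma adjusted p = 0.0614). It passed without KO replicate 2. Beside it, all 14 tested cell cycle markers had both KO signals below both WT signals, against 27.5% of all tested genes. Of the 14 markers 8 were past the threshold, and their part in the Birc5 value was not tested. Birc3, a ubiquitin ligase gene of NF-kappa-B signalling, read 502 and 655 in KO, against 857 and 711 in WT (difference -0.43, adjusted p = 0.269).

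Upstream regulators of BH3-only genes gave 0 calls among 7 tested p53 and FOXO pathway genes. Trp53, the gene of p53 itself, was not among the matched genes. Foxo4, a forkhead factor gene, read 451 and 533 in KO, against 270 and 250 in WT (difference 0.88, limma adjusted p = 0.0584), and it passed after centring on the median. Trp63, a p53 relative and a marker of basal cells, read 527 and 719 in KO, against 769 and 1363 in WT (difference -0.72, adjusted p = 0.236).

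In the list of genes known from the involution that follows weaning, 1 of 13 tested genes rose. Osmr, the receptor of oncostatin M, which signals through STAT3, read 2206 and 1874 in KO, against 1149 and 1040 in WT. Both KO arrays lay well above both WT arrays, with a mean of 2040 ± 234 in KO and 1094 ± 77.0 in WT (SD, n = 2) and a difference of 0.89 with an interval of 0.53 to 1.24 (limma adjusted p = 0.0425). A second probe set gave 0.63 (adjusted p = 0.0922). The call was lost without KO replicate 1 (0.77, adjusted p = 0.0668), without WT replicate 1 (0.96, 0.0975) and without WT replicate 2 (0.82, 0.204), and averaging its probe sets gave 0.43 (0.16). It was also lost when dim genes were kept in (adjusted p = 0.110), when the variance trend was dropped (0.0677) and after centring on epithelial markers (0.201). Cebpd, a C/EBP factor gene induced by STAT3, read 1940 and 3619 in KO, against 1242 and 950 in WT (difference 1.27, limma adjusted p = 0.0774). It passed after centring on epithelial markers, where Osmr did not. Macrophage markers were higher in KO beside these genes, 6 of 8 with no overlap, against 26.2% of all tested genes with KO above WT. None of the 8 passed, and the part of these markers was not tested.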

How the data were processed

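Gene expression was measured in mouse mammary tissue on 4 Affymetrix arrays, 2 per genotype, with genotype taken from the labels. Replicates were numbered in the order of deposit, and equal numbers do not pair mice. The deposited table holds linear intensities, 1 for each probe set, computed with MAS5 according to the submitters' processing notes. Its version and settings are not given in the sources used here. Within every array the mean of the authors' intensities without the lowest and highest 2% was 500. Per the labels' protocols RNA was extracted with TRIzol. Detection calls were not used, so dim signals could not be placed against background, and precision is limited by the number of arrays.

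After 64 of 45101 probe sets were left out as controls, 34945 had 1 symbol in the platform annotation. Intensities were taken as log2(signal + 16). The 22519 probe sets at or above the median level (7.15 on the log2 scale, a signal of 126) were tested by limma 3.58.1 in R 4.3.3 (lmFit, eBayes with a trend), with Benjamini-Hochberg adjustment over all of them. Intervals cover 95%. A gene was represented by its brightest probe set. The p-values rest on the spread between these mice, with the variance of each probe set drawn towards that of probe sets of similar level. With 2 against 2 mice the smallest two-sided p of an exact permutation test is 0.333. The script was tested on simulated data. Members, pathway lists and marker lists were chosen with earlier results of these data known. All members are named, and from each pathway list every gene past the threshold and the 2 with the largest absolute difference. Marker lists also covered neutrophils (1 of 2 tested genes rose, Ltf, which mammary epithelium makes too), plasma cells (0 of 1 passed), endothelium (0 of 6) and fibroblasts (0 of 6). Alternatives were other pseudocounts, scalings, filters and summaries, and leaving out each array.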

Additional observations from a re-analysis of the deposited data

How the results depend on the processing

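No member gene passed in any of 13 other settings (0 with an array left out), and 1, Bcl2, passed when any tested probe set was allowed to call a gene, an alternative chosen after seeing the data. With the 75th percentile filter 4 of the members were bright enough to be tested, and averaging probe sets left 8. The Bcl2 probe set that passed was not tested with the 75th percentile filter. With a fit on 2 against 1 array, the lone array is assumed to vary like the others. Member differences changed sign, without a call, for Bak1 (0.17 centred on epithelial markers, 0.061 without KO replicate 1), Bmf (-0.10 without KO replicate 2, -0.19 without WT replicate 2), Mcl1 (0.20 centred on epithelial markers, 0.11 averaging all probe sets, 0.021 without WT replicate 2) and Pim2 (0.022 centred on epithelial markers). Centring on epithelial markers moves the difference of every gene by the same amount, so the changes of sign under it follow from the scaling. The cause of the other changes was not tested. With an array left out, differences ranged between -0.29 and 0.06 for Bak1, -0.19 and 0.33 for Bmf, -0.19 and 0.02 for Mcl1, 0.0026 and 0.09 for Bcl2, 0.15 and 0.31 for Bcl2l1, -0.81 and -0.36 for Bcl2l11, -0.84 and -0.05 for Bbc3, -0.48 and -0.17 for Pim1 and -0.40 and -0.13 for Pim2. Centring on epithelial markers moved the median difference of all genes to 0.28, against -0.01, and that of the members to 0.17, against -0.12.

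Of all genes, 190 passed centred on epithelial markers, 27 with no filter, 127 with the 75th percentile filter, 137 without a variance trend, 174 averaging all probe sets and 43 to 563 with an array left out, against 292. The share of calls higher in KO was 61.7% centred on the median and 68.4% centred on epithelial markers, against 47.3%. Other pathway genes past the threshold, 1 as reported, numbered 3 with a pseudocount of 64 (Bcl2l14, Bnip3 and Osmr) and 2 after quantile normalization (Bnip3 and Osmr). They numbered 3 centred on the median (Bnip3, Foxo4 and Osmr) and 1 centred on epithelial markers (Cebpd in place of Osmr). They numbered 0 without a filter, without a variance trend or averaging all probe sets. They ranged between 0 and 4 with an array left out, with 0 when either WT array was left out, 3 without KO replicate 1 (Cebpd, Pim3 and Zfp36) and 4 without KO replicate 2 (Bcl2l14, Birc5, Cdkn1a and Osmr). Zfp36, Cdkn1a and the untested BCL2 relatives are named after their values were seen. No paired analysis was possible because the labels carry no replicate numbers that groups share.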
